A study of Mus musculus with 3 samples.

Results

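Cell cycle and DNA replication genes were examined in the RNA of apoptotic bodies (ABs), the membrane-bound fragments that a dying cell sheds, from the osteoclast lineage at 3 stages. A list of 50 genes was used, and a gene was a member when a transcript of the mRNA table carried its GENCODE M21 symbol. The reads of all listed transcripts of a gene were added up. Each of the 50 members had at least 1 listed transcript, out of 15832 genes in the table, and each was among the 12702 genes with at least 20 reads over the 3 libraries together. Ccnd2 had 42 reads in all, whereas the other 49 members had at least 100 reads in every library.

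A cell passes from the first gap phase into S phase when D-type cyclins with CDK4 or CDK6, and then cyclin E with CDK2, inactivate the retinoblastoma protein and release E2F factors, which turn on the genes for DNA replication. The MCM helicase is loaded onto origins before S phase and fires in S phase, and mitosis is then driven by CDK1 with cyclins A and B, the Polo and Aurora kinases and the spindle proteins. Bone marrow macrophages divide in response to M-CSF, while RANKL turns them into mononuclear preosteoclasts that fuse into non-dividing, multinucleated osteoclasts, with the CDK inhibitors p21 and p27 among the proteins that hold back the cycle.

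Bone marrow came from the femurs and tibia of C57BL/6 mice at postnatal week 11. The floating cells were kept in M-CSF at 50 ng/mL for 72 h to give bone marrow macrophages (BMMs). BMMs in M-CSF at 30 ng/mL with RANKL at 100 ng/mL gave preosteoclasts (pOCs) at 24 h and mature osteoclasts (mOCs) at 72 h or more. All 3 cultures then received an inducer of apoptosis, so that no library came from ABs of an untreated culture. The labels name this inducer as alendronate, a bisphosphonate, at 500 µM for 12 h, while the methods of the study name staurosporine, a kinase inhibitor, and a longer RANKL culture. The sample titles name the cells, whereas the design text and the methods say that the RNA came from their ABs. The libraries are called BMM-ABs for macrophages, pOC-ABs for preosteoclasts and mOC-ABs for mature osteoclasts, and sets of 3 values below are in that order. Pooling of mice is not stated in the sources used here.

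There was 1 library for each stage, so differences between stages had no replicate check and no test was made. M-CSF was at 50 ng/mL for BMM-ABs and at 30 ng/mL for pOC-ABs and mOC-ABs. In comparisons with BMM-ABs, M-CSF dose and RANKL stage therefore cannot be told apart. The mRNA table held 9100082, 7387317 and 7705592 reads. Levels of 1 gene were compared between libraries as reads scaled to 1000000 mRNA-table reads (RPM), and 3 reads corresponded to between 0.33 and 0.41 RPM. Intervals are exact 95% intervals (Clopper-Pearson), which cover counting error only. In such bulk RNA, fewer cells of a type and less RNA per cell cannot be told apart. The fold limit of the study was used, so that a gene was counted as higher above a ratio of 2 and as lower below 0.5.

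The labelled stages were checked against cell type markers. Osteoclast markers held 0.034%, 0.058% and 0.187% of the reads in the 3 libraries, with 9 of 10 listed. Acp5, the tartrate-resistant acid phosphatase, had 88, 292 and 2157 reads, and Ctsk, the collagen-degrading cathepsin K, had 180, 171 and 1001 reads. Among the other osteoclast markers, Itgb3 had 6, 3 and 0 reads, Oscar had no read in BMM-ABs, and Calcr, the calcitonin receptor, had no listed transcript. Macrophage markers, all 7 listed, held 0.521%, 0.247% and 0.161% of the reads, although Mertk had 0, 2 and 5 reads and Mrc1 had 10, 2 and 1. Single markers did not all follow these sums, since Csf1r, the M-CSF receptor, was at 1084.6, 357.4 and 506.4 RPM and Cd68 at 729.4, 649.0 and 656.1 RPM, and the pOC/BMM interval of Ctsk (-0.08 to 0.54) included no difference. The summed marker levels moved with the stage, but a single gene weighed heavily in each sum. Nfatc1 had 2566, 2772 and 8463 of the 3139, 4292 and 14413 osteoclast marker reads. Lyz2 had 28844, 9854 and 3170 of the 47431, 18240 and 12436 macrophage marker reads. From pOC-ABs to mOC-ABs the RPM of Lyz2, Adgre1 and Itgam fell, while that of Csf1r and Cd68 did not. The part of these markers in the results for the cell cycle genes was not tested. Of 34 neutrophil, lymphoid, erythroid, stromal and megakaryocyte markers, 8 were listed, with 44, 16 and 16 reads in all.

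The cell cycle genes were well represented in all 3 kinds of ABs. They held 0.681% (interval 0.676 to 0.686), 0.758% (0.752 to 0.765) and 0.648% (0.642 to 0.654) of the mRNA reads. On the deposited FPKM scale, summed over the transcripts of a gene, which divides reads by transcript length and so allows genes to be compared, the median member stood at 47.7, 49.0 and 44.4, against 14.4, 14.0 and 13.3 over all genes with at least 20 reads. The FPKM lay above the upper quartile of those genes in 30, 34 and 30 of the 50 members.

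Cdk4, the partner kinase of the D-type cyclins, had the highest FPKM of the members in BMM-ABs (247) and mOC-ABs (347), and Cdkn1a, which encodes p21, in pOC-ABs (281). The largest part of the Cdk4 FPKM was on ENSMUST00000145670, a transcript of 468 bases annotated as a retained intron, at 93.9, 83.3 and 134.8. The coding transcript ENSMUST00000006911 of Cdk4 was at 77.1, 67.3 and 79.8 FPKM. Pcna, the sliding clamp of the replication fork, was at 162, 280 and 254 FPKM. Top2a, the topoisomerase that untangles replicated chromosomes, was at 133, 115 and 102 FPKM. At the other end, Ccnd2 was at 0.184, 0.574 and 0.226 FPKM, more than an order of magnitude below Ccnd1 and Ccnd3 in each library.

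**Figure D1:**
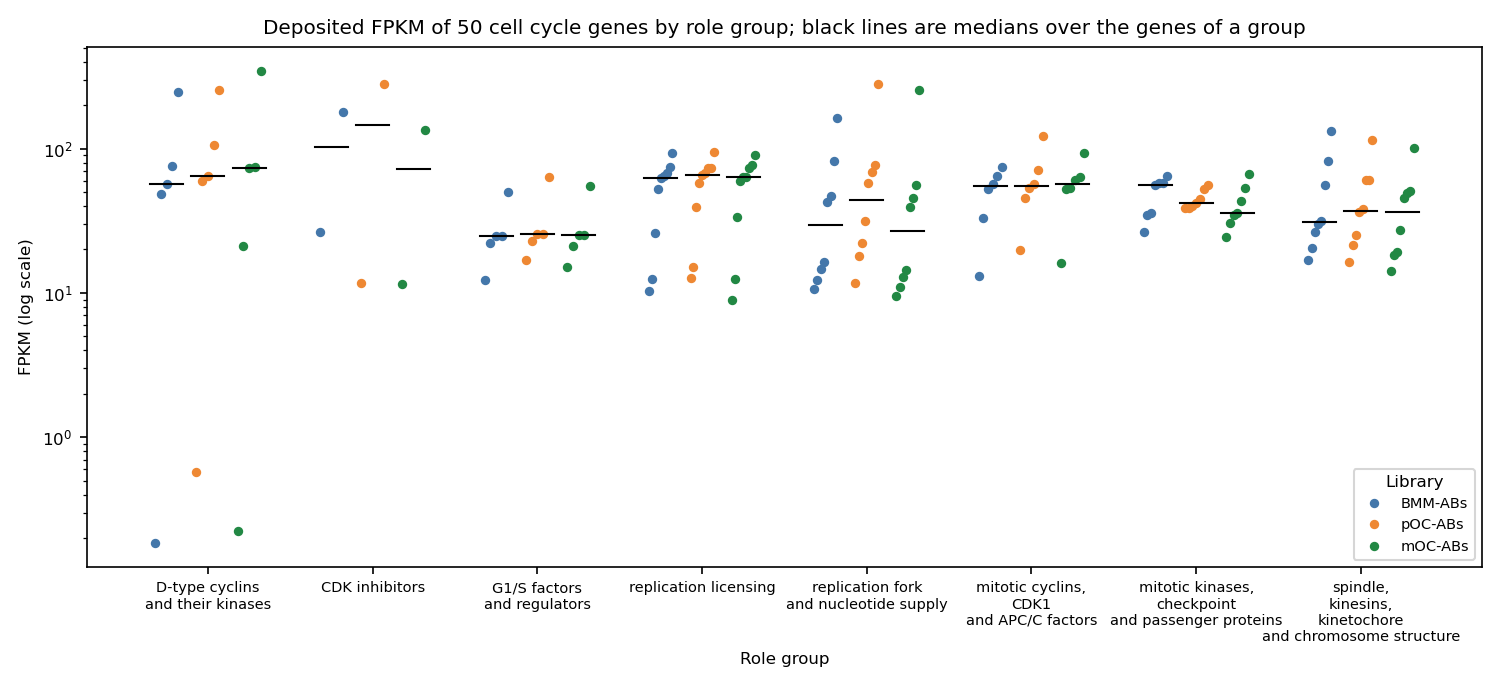
Deposited FPKM on a log scale for the 50 cell cycle genes, by role group, with 1 point for each gene and library and black lines for the medians over the genes of a group. Most genes sit between 10 and 100 FPKM in all 3 libraries, Cdk4, Cdkn1a, Pcna and Top2a lie above, and Ccnd2 lies below 1.

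In the comparison of pOC-ABs with BMM-ABs (pOC/BMM), most members were modestly higher in pOC-ABs and few passed the fold limit. Ccnd2 and Fen1 were above a ratio of 2, which is 2 of 50 members, where 4.84% of all genes with at least 20 reads were. Cdkn1b was below 0.5, which is 1 of 50, where 6.05% of all genes were. Irrespective of the limit, 37 of 50 members had a ratio above 1, against 48.4% of all genes. The median log2 ratio of the members was 0.22, against -0.02 over all genes, and the log2 ratio of their summed reads was 0.16 (interval 0.14 to 0.17).

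That surplus in pOC-ABs depended on the scaling. With the total of the mRNA and lncRNA tables as the divisor, 26 of 50 members were above 1 and their median was 0.03, while the median over all genes went to -0.22. A change of divisor shifts the log2 ratios of all genes alike. The distance of 0.25 between the medians of the members and of all genes was therefore bound to stay the same. In all 4 scalings tried, which differ only in the divisor, 26 members stood above 1 and 12 below, and 12 changed side. FPKM can also reorder genes, and on that scale Prim1, among the 12 below, had a log2 ratio of 0.43.

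In the comparison of mOC-ABs with BMM-ABs (mOC/BMM), the members were spread around a ratio of 1. None was above 2, where 4.12% of all genes were, and Ccnd3 and Cdkn1b were below 0.5, where 8.98% of all genes were. A ratio above 1 was found for 23 of 50 members, against 45.4% of all genes. The median log2 ratio was -0.03 for the members and -0.05 over all genes, and the summed reads differed by -0.07 (interval -0.09 to -0.05). The 23 members above 1 became 16 with the total of both tables and 26 with median-of-ratios size factors.

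In the comparison of mOC-ABs with pOC-ABs (mOC/pOC), most members were lower in mOC-ABs. Ccnd2, Ccnd3, Cdkn1a and Fen1 were below 0.5, which is 4 of 50, where 6.83% of all genes were, and none was above 2, where 3.48% of all genes were. Only 10 of 50 members had a ratio above 1, against 45.5% of all genes. The median log2 ratio was -0.25, against -0.05 over all genes, and that of the summed reads was -0.23 (interval -0.24 to -0.21). In all 4 scalings, which differ only in the divisor, 36 members were below 1 and 10 above. On the FPKM scale, Cdk6 and Cdk1 of the 36 had log2 ratios of 0.19 and 0.24. Cenpf of the 10 was at -0.46 there. With the total of both tables, 2 members stayed below 0.5, Ccnd3 and Fen1, and Ccnd2 came inside the limit with protein-coding transcripts only or with a pseudocount. The 3 comparisons share libraries, so their values are set side by side and are not independent of each other.

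**Figure D2:**
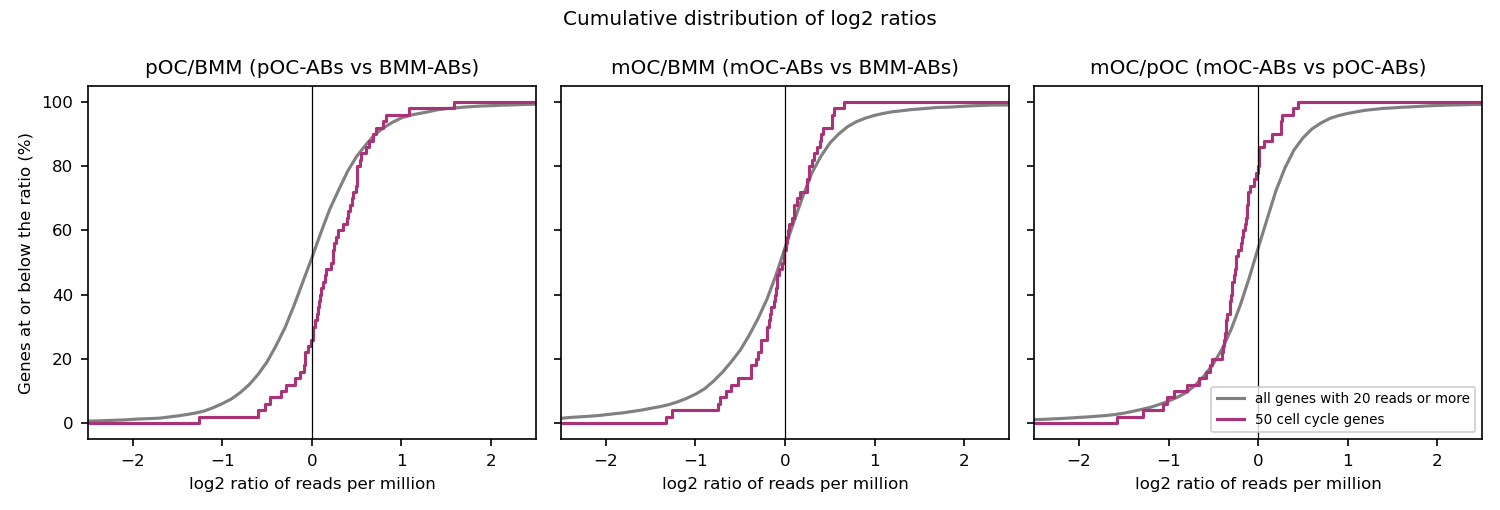
Cumulative share of genes (y axis, percent) at or below each log2 ratio of RPM (x axis) for the 50 cell cycle genes and for all genes with at least 20 reads, in pOC/BMM, mOC/BMM and mOC/pOC. The members lie to the right of all genes in pOC/BMM (median 0.22 against -0.02) and to the left in mOC/pOC (-0.25 against -0.05), and in mOC/BMM the medians are -0.03 and -0.05.

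By library, 32 of 50 members had their highest RPM in pOC-ABs, against 33.6% of all genes. BMM-ABs were highest for 11 members and mOC-ABs for 7, against 39.1% and 27.2% of all genes. Only 5 members, Cdt1, Cdc20, Bub1b, Aurka and Cenpf, were lowest in pOC-ABs, against 30.7% of all genes. With the total of both tables, pOC-ABs were highest for 23 members and lowest for 11, against 22.3% and 43.6% of all genes, and BMM-ABs were highest for 21, against 51.6%. Differences were small in most members, since the highest RPM was 1.37 times the lowest at the median, against 1.46 times over all genes. All genes included those with as few as 20 reads in all, whereas 49 members had at least 100 in every library. Counting error widens ratios more at few reads. The part of this unlike depth, here and in the shares past the fold limit, was not tested. The ratio of highest to lowest ran from 1.02 in E2f1 to 3.01 in Ccnd2.

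**Figure D3:**
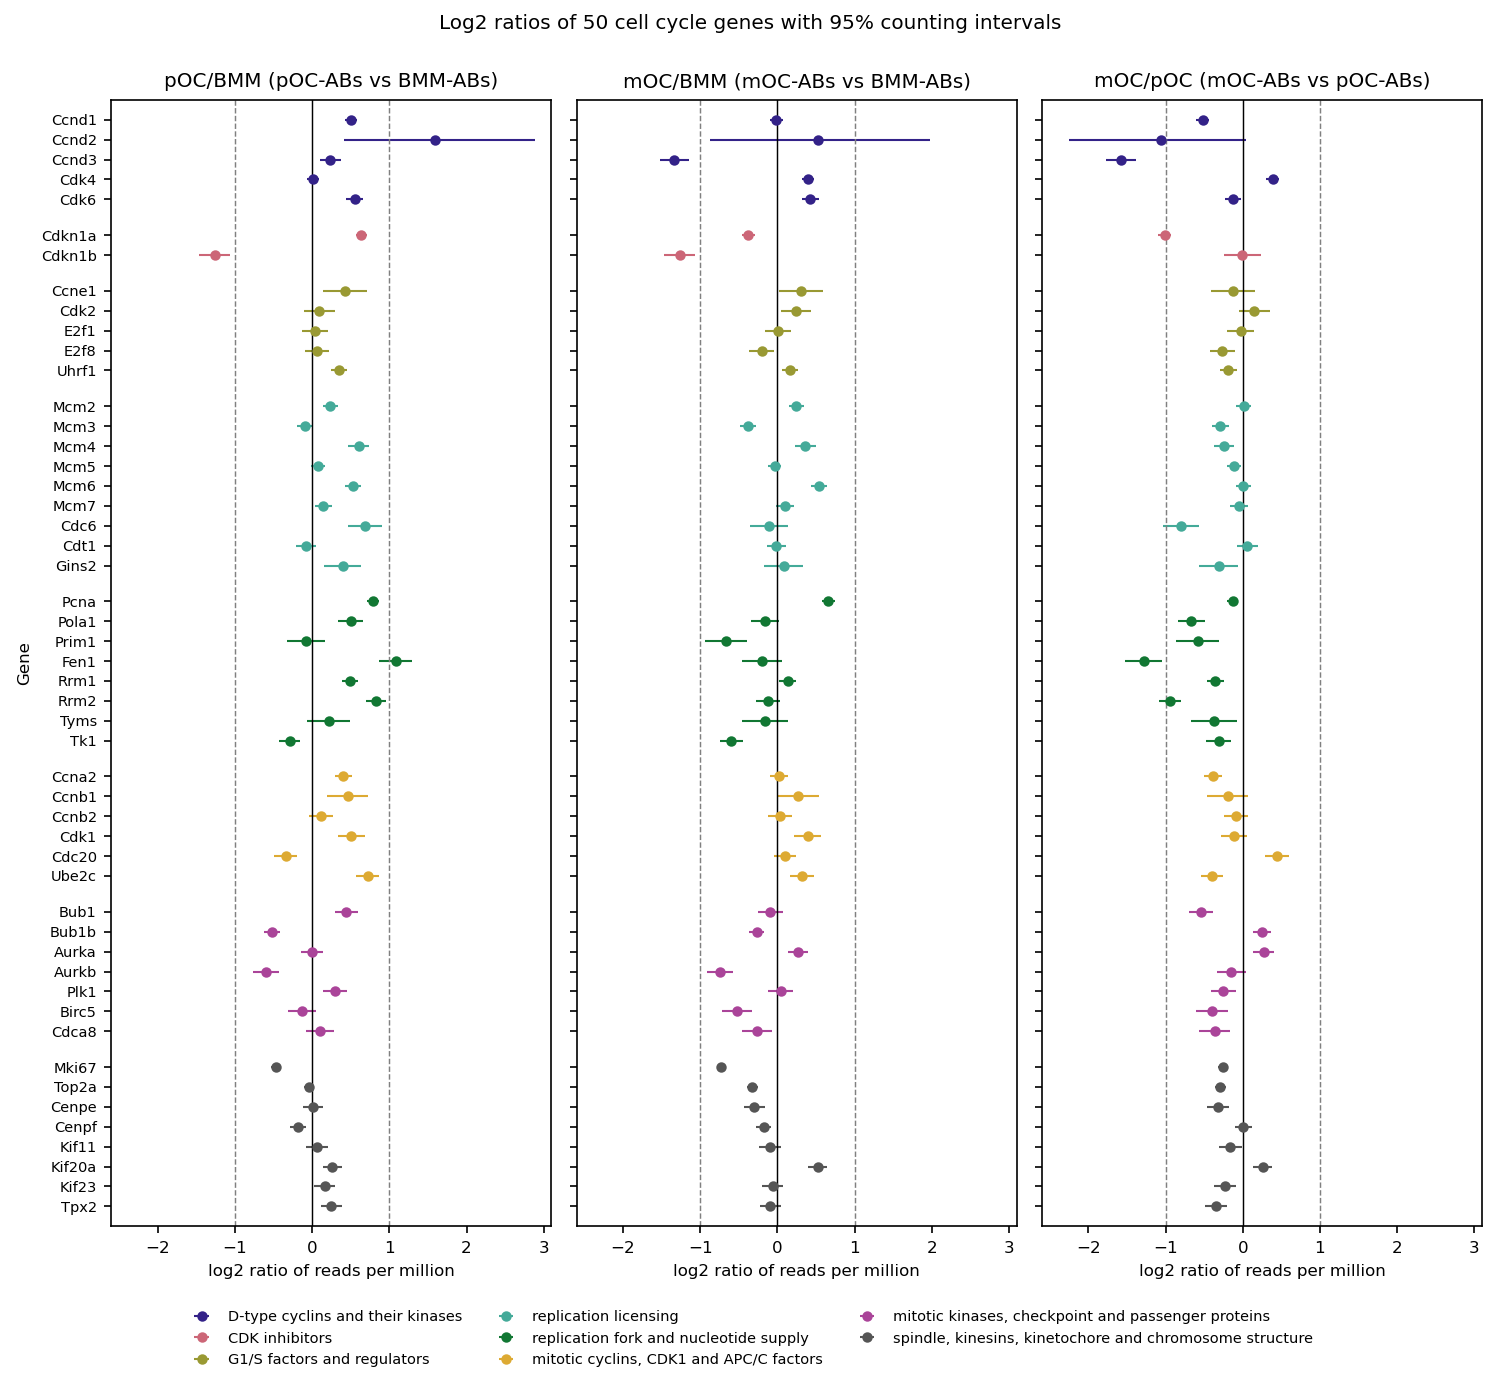
Log2 ratios of RPM (x axis) with exact 95% counting intervals for each of the 50 genes (y axis, coloured by role group) in pOC/BMM, mOC/BMM and mOC/pOC. Dashed lines mark the fold limit of 2. Cdkn1b lies past it in pOC/BMM and mOC/BMM, Ccnd3 in mOC/BMM and mOC/pOC, Fen1 and Ccnd2 in pOC/BMM and mOC/pOC, and Cdkn1a in mOC/pOC, and the interval of Ccnd2 is wide because of its 42 reads.

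The D-type cyclins, which carry the M-CSF signal to the cell cycle, differed from each other across the stages. Ccnd1 was at 261.5, 370.4 and 258.9 RPM. It was thus highest in pOC-ABs, by a log2 ratio of 0.50 (0.42 to 0.58) over BMM-ABs, while BMM-ABs and mOC-ABs differed by -0.01, with an interval (-0.10 to 0.07) that included no difference. Ccnd2, on chromosome 6 (127125162 to 127152193, minus strand), had 9, 22 and 11 reads. Its log2 ratio was 1.59 in pOC/BMM (0.41 to 2.89) and -1.06 in mOC/pOC, where the interval from -2.25 to 0.04 included no difference. With so few reads, no order of BMM-ABs and mOC-ABs was detectable for Ccnd2 (0.53, interval -0.88 to 1.98).

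Ccnd3 was the D-type cyclin with a low level in mOC-ABs. It had 902, 863 and 303 reads, or 99.1, 116.8 and 39.3 RPM, and was 2.52-fold lower in mOC-ABs than in BMM-ABs (log2 ratio -1.33, -1.53 to -1.14) and 2.97-fold lower than in pOC-ABs (-1.57, -1.76 to -1.38). BMM-ABs and pOC-ABs differed by 0.24 (0.10 to 0.37). Both low values were past the limit under each of the 8 alternatives tried. The gene spans chr17:47505051-47599691 on the plus strand and has transcripts that begin at 2 places, an upstream first exon and one far downstream of it, next to the remaining exons.

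The division of Ccnd3 reads between these starts differed between libraries. In BMM-ABs and pOC-ABs the leading transcript was ENSMUST00000182209, which begins at the downstream exon (47593470) and had 711, 824 and 36 reads. In mOC-ABs it was ENSMUST00000183044, which begins at the upstream exon (47505119) and had 0, 0 and 223 reads. Both are annotated as protein-coding. Over all listed transcripts, the 5 that begin upstream held 12.4% (10.3 to 14.7) of the Ccnd3 reads in BMM-ABs, 1.74% (0.976 to 2.85) in pOC-ABs and 78.9% (73.8 to 83.3) in mOC-ABs. How reads were divided among transcripts that share exons is not given in the sources used here, and its part in this difference was not tested. The grouping by first exon was chosen after the values were seen.

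The sequence upstream of each Ccnd3 start is shown because the leading transcript of mOC-ABs and that of the other libraries begin at different starts, although each library had reads at both. Each line gives the 250 bases 5′ of a RefSeq start in GRCm38.p6, at chr17:47504801-47505050 (upstream) and chr17:47593217-47593466 (downstream), both on the plus strand. Capitals mark matches to the 3 kinds of motif searched on both strands, which were the CHR element TTTGAA, the CCAAT box, and the E2F words TTTCCCGC, TTTCGCGC, TTTGCCGC and TTTGGCGC.
Ccnd3 upstream start: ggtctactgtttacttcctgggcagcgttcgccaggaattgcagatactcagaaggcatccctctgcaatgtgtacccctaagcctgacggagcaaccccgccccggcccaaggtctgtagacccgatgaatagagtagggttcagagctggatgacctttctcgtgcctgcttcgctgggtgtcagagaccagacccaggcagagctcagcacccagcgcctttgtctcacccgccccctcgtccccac
Ccnd3 downstream start: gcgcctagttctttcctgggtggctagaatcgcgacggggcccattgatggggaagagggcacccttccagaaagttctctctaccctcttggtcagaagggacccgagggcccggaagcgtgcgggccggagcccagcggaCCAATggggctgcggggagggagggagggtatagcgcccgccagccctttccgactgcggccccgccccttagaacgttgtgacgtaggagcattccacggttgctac
The downstream window held 1 CCAAT match and the upstream window held none of the 3 kinds. A match describes the letters in the window and says nothing about binding there.

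Cdk4 and Cdk6, the kinases that the D-type cyclins activate, took different courses. Cdk4 was at 291.3, 293.7 and 384.5 RPM, which placed mOC-ABs above both others, by 0.40 (0.32 to 0.48) over BMM-ABs and 0.39 (0.31 to 0.47) over pOC-ABs. These totals include retained-intron transcripts, and the coding ENSMUST00000006911 had 1441, 1020 and 1263 of the 2651, 2170 and 2963 reads of Cdk4. For Cdk6 the levels were 130.1, 190.7 and 174.9 RPM, lowest in BMM-ABs, with 0.55 (0.44 to 0.66) in pOC/BMM and 0.43 (0.31 to 0.54) in mOC/BMM. On the FPKM scale the pOC/BMM difference of Cdk6 was 0.18.

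The CDK inhibitors Cdkn1a (p21) and Cdkn1b (p27) differed in opposite directions in pOC/BMM, and both were lower in mOC-ABs than in BMM-ABs. Cdkn1b, at chr6:134920401-134925513 on the plus strand, was at 88.7, 37.0 and 36.9 RPM, with 807, 273 and 284 reads. It was 2.40-fold lower in pOC-ABs (-1.26, -1.47 to -1.06) and 2.41-fold lower in mOC-ABs (-1.27, -1.47 to -1.07) than in BMM-ABs, while the interval of mOC/pOC (-0.25 to 0.24) included no difference. Cdkn1a, at chr17:29090976-29100727 on the plus strand, was at 327.8, 509.7 and 252.7 RPM. The highest level was in pOC-ABs, 0.64 (0.57 to 0.71) above BMM-ABs, and mOC-ABs were lowest, at -0.38 (-0.46 to -0.29) against BMM-ABs and -1.01 (-1.09 to -0.93) against pOC-ABs. The last value sits at the fold limit, with part of its interval inside, and the total of both tables and the median-of-ratios factors took it inside.

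**Figure D4:**
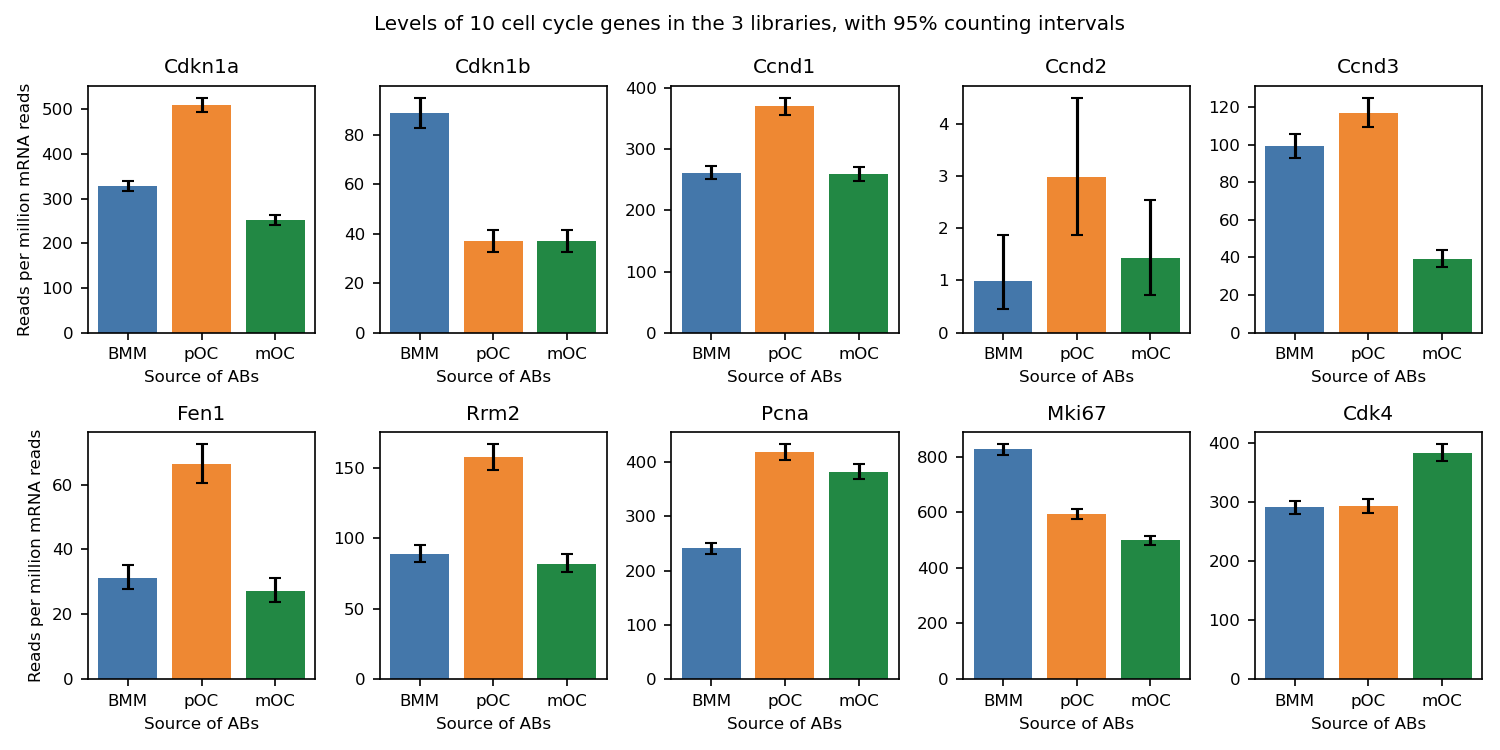
RPM (y axis, from 0) of 10 cell cycle genes in the 3 libraries, as bars with exact 95% counting intervals and no replicate error. Cdkn1b is high in BMM-ABs, Ccnd3 is low in mOC-ABs, Cdkn1a, Ccnd1, Ccnd2, Fen1 and Rrm2 are highest in pOC-ABs, Pcna is low in BMM-ABs, and Mki67 goes down from BMM-ABs to mOC-ABs.

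The G1/S factors were close to level across the 3 libraries, with all 5 within 1.5-fold in each comparison. E2f1, the E2F activator, was at 68.6, 70.3 and 69.0 RPM, the narrowest spread of the 50 members. The repressor E2f8 was at 85.2, 88.8 and 74.0 RPM and the S-phase kinase Cdk2 at 47.6, 50.8 and 56.3 RPM. Uhrf1, which keeps DNA methylation through replication, was highest in pOC-ABs (202.9 against 159.6 RPM in BMM-ABs, 0.35, interval 0.24 to 0.45). Ccne1, cyclin E1, was at 21.5, 29.0 and 26.6 RPM and exceeded BMM-ABs by 0.43 (0.14 to 0.71) in pOC-ABs and 0.30 (0.02 to 0.59) in mOC-ABs.

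Replication licensing genes stayed within the fold limit, but the 6 subunits of the MCM helicase did not move as a unit. Mcm6 was at 155.3, 224.8 and 226.2 RPM, or 0.53 (0.43 to 0.64) and 0.54 (0.44 to 0.65) above BMM-ABs in the 2 osteoclast stages. On the FPKM scale these differences of Mcm6 were 0.33 and 0.55. Mcm4 was likewise lowest in BMM-ABs (93.8, 142.4 and 120.3 RPM), and Mcm2 was at 204.4, 240.7 and 242.4 RPM. Mcm3 went the other way, at 206.8, 194.1 and 158.6 RPM, with -0.38 (-0.49 to -0.28) in mOC/BMM. Mcm5 and Mcm7 differed by less than 1.11-fold between their highest and lowest libraries.

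Among the loading factors, Cdc6 was at 34.1, 54.8 and 31.5 RPM, so that pOC-ABs stood 0.69 (0.47 to 0.90) above BMM-ABs and the mOC/pOC value was -0.80 (-1.03 to -0.56). On the FPKM scale these differences of Cdc6 were smaller, at 0.30 and -0.51. Gins2, a part of the GINS complex of the active helicase, was also highest in pOC-ABs, at 30.8, 40.5 and 32.6 RPM. Cdt1, the partner of Cdc6 in loading, differed by no more than 1.05-fold among the libraries (127.4, 120.7 and 126.0 RPM). The interval of Cdt1 included no difference in each comparison.

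The promoter of Mcm6 is shown because the MCM genes carried most of the E2F words found in the list. The line gives the 250 bases 5′ of the RefSeq start in GRCm38.p6 at chr1:128359706-128359955, minus strand, with motif matches in capitals.
Mcm6: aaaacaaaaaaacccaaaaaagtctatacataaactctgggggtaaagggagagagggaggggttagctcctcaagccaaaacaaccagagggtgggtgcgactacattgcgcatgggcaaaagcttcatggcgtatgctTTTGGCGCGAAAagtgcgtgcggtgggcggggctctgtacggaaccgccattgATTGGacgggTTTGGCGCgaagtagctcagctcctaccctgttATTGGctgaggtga
Of the 7 licensing genes with a RefSeq promoter window, 6 held at least 1 E2F word, the exception being Mcm2. The window of Mcm6 held 3 E2F words, of which a pair overlaps in the longest run of capitals, and 2 CCAAT matches. Over all 42 members with a window, 10 held an E2F word.

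Replication fork and nucleotide supply genes had the largest group ratio in pOC/BMM, with 0.55 on the log2 scale for their summed reads and 6 of 8 above 1, against 48.4% of all genes. In mOC/pOC, all 8 were below 1, where 45.5% of all genes were above 1, and the summed ratio was -0.40. Fen1, the flap endonuclease that trims Okazaki fragments, at chr19:10199132-10204169 on the minus strand, was at 31.3, 66.3 and 27.3 RPM with 285, 490 and 210 reads. It was 2.12-fold higher in pOC-ABs than in BMM-ABs (1.08, 0.87 to 1.30) and 2.43-fold lower in mOC-ABs than in pOC-ABs (-1.28, -1.52 to -1.05), and the interval of mOC/BMM (-0.46 to 0.06) included no difference. The pOC/BMM interval of Fen1 reached inside the fold limit, and with the total of both tables its pOC/BMM ratio was inside too.

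Rrm2, the regulated subunit of ribonucleotide reductase, had a similar course just inside the limit, at 89.1, 157.6 and 82.0 RPM, with 0.82 (0.69 to 0.95) in pOC/BMM and -0.94 (-1.08 to -0.80) in mOC/pOC. The partner subunit Rrm1 was at 149.8, 210.5 and 164.4 RPM and Pola1, the catalytic subunit of polymerase alpha, at 65.8, 93.1 and 58.8 RPM. Pcna was higher in both osteoclast stages than in BMM-ABs, at 241.5, 418.3 and 382.1 RPM, with 0.79 (0.71 to 0.87) in pOC/BMM and 0.66 (0.58 to 0.74) in mOC/BMM.

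Tk1, the thymidine salvage kinase, was at 114.0, 93.1 and 75.3 RPM, highest in BMM-ABs, with -0.60 (-0.75 to -0.45) in mOC/BMM. Tyms, thymidylate synthase, was at 24.3, 28.2 and 21.8 RPM, in the order of Fen1 and Rrm2. Its mOC/pOC value was -0.37 (-0.67 to -0.07), while its pOC/BMM and mOC/BMM intervals included no difference. Prim1, the primase subunit, was at 36.2, 34.2 and 22.8 RPM, but most of its reads in BMM-ABs belonged to a retained-intron transcript. With protein-coding transcripts only, Prim1 had 119, 246 and 154 reads and stood past the limit in pOC-ABs (1.35 over BMM-ABs, 1.03 to 1.68).

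Mitotic cyclins, Cdk1 and the APC/C factors had a summed log2 ratio of 0.30 in pOC/BMM, 0.15 in mOC/BMM and -0.16 in mOC/pOC, and none of the 6 passed the limit. Cdk1, the kinase that starts mitosis, was at 57.1, 81.2 and 75.01 RPM, with BMM-ABs lowest by 0.51 (0.34 to 0.68) in pOC/BMM and 0.39 (0.22 to 0.57) in mOC/BMM. On the FPKM scale its mOC/BMM log2 difference was 0.95. A short protein-coding transcript of 695 bases, ENSMUST00000152448, held 101, 192 and 236 of its 520, 600 and 578 reads, and reads on a short transcript weigh more in FPKM.

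Ccna2, cyclin A2, was at 147.4, 194.8 and 149.4 RPM and Ccnb1, cyclin B1, at 24.6, 33.8 and 29.6 RPM, both highest in pOC-ABs. Ccnb2, cyclin B2, had 80.0, 86.9 and 81.9 RPM, and its interval included no difference in any comparison. Ube2c, the ubiquitin-conjugating enzyme of the APC/C, was highest in pOC-ABs (72.2, 119.0 and 90.2 RPM, 0.72 in pOC/BMM, 0.57 to 0.87). Cdc20, which activates the APC/C, was lowest there (101.4, 80.0 and 108.6 RPM, -0.34 in pOC/BMM, -0.49 to -0.19, and 0.44 in mOC/pOC, 0.29 to 0.60).

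Promoters of Cdk1 and Ccnb2 are shown as examples of the mitotic genes, most of which held a CHR element, a site named for cell cycle genes homology region. Each line gives the 250 bases 5′ of the RefSeq start in GRCm38.p6, for Cdk1 at chr10:69352913-69353162 and for Ccnb2 at chr9:70421555-70421804, both on the minus strand, with matches in capitals.
Cdk1: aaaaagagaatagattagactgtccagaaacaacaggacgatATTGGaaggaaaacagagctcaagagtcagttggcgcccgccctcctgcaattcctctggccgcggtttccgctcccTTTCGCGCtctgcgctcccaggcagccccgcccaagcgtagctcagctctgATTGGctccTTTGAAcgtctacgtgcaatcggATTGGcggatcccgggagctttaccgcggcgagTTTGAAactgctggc
Ccnb2: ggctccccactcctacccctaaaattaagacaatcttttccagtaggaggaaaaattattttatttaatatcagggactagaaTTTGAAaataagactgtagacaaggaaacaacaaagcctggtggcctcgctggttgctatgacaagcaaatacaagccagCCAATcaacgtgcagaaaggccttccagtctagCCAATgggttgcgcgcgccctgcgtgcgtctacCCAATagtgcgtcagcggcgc
The line of Cdk1 holds 2 CHR words, 3 CCAAT matches and 1 E2F word, and that of Ccnb2 holds 1 CHR word and 3 CCAAT matches. In pOC/BMM the RPM of Cdk1 differed by 1.42-fold and that of Ccnb2 by 1.09-fold.

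Mitotic kinases, checkpoint and passenger genes had summed log2 ratios of -0.13, -0.20 and -0.07 and median log2 ratios of -0.0046, -0.27 and -0.25 in pOC/BMM, mOC/BMM and mOC/pOC. In pOC/BMM 3 of the 7 genes were above 1, and Bub1b held 2076 and 1176 of the group's 6393 and 4756 reads. Aurkb, the kinase of the chromosomal passenger complex, was at 96.8, 64.0 and 57.8 RPM, or -0.60 (-0.76 to -0.43) in pOC/BMM and -0.75 (-0.91 to -0.58) in mOC/BMM. Birc5, survivin, of the same complex, was at 64.8, 59.3 and 45.2 RPM, with -0.52 (-0.72 to -0.33) in mOC/BMM. Cdca8, borealin, of that complex too, was at 59.1, 63.2 and 49.2 RPM.

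The spindle checkpoint genes Bub1 and Bub1b differed in the place of pOC-ABs. Bub1 was highest in pOC-ABs (79.0, 107.5 and 74.1 RPM, 0.44 in pOC/BMM, 0.30 to 0.59), and Bub1b lowest there (228.1, 159.2 and 189.5 RPM, -0.52 in pOC/BMM, -0.62 to -0.42). Aurka, the spindle pole kinase, was at 102.5, 102.2 and 123.3 RPM, highest in mOC-ABs by 0.27 over each of the others. Plk1, the Polo kinase, was at 72.1, 88.4 and 74.2 RPM.

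Spindle, kinetochore and chromosome genes had 18544, 13523 and 12350 reads and a summed log2 ratio of -0.35 in mOC/BMM. Mki67, the gene of the proliferation marker Ki-67, was at 825.6, 594.8 and 498.6 RPM. Its log2 ratio to BMM-ABs was -0.47 (-0.53 to -0.42) in pOC-ABs and -0.73 (-0.78 to -0.67) in mOC-ABs. Top2a was at 453.7, 441.8 and 361.8 RPM, with -0.04 in pOC/BMM and -0.33 (-0.40 to -0.26) in mOC/BMM. Because Mki67 and Top2a supply much of the group's sum, the median mOC/BMM ratio of its 8 genes was nearer to 0, at -0.14.

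The kinetochore genes Cenpe and Cenpf were lower in mOC-ABs than in BMM-ABs, by -0.30 (-0.44 to -0.17) and -0.18 (-0.28 to -0.08). Kif20a, a kinesin of cytokinesis, was the exception of the group, at 112.5, 135.1 and 161.4 RPM, with 0.52 (0.40 to 0.64) in mOC/BMM. Kif11, the kinesin that separates the spindle poles, was at 98.5, 102.9 and 91.9 RPM, and Kif23 and the spindle assembly factor Tpx2 were between 99.1 and 125.8 RPM in all libraries.

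The same genes were then read by transcript. The 50 members had 237 listed transcripts, of which 110 were annotated as protein-coding and 95 as retained introns. Protein-coding transcripts held 93.6% (93.5 to 93.8), 95.1% (94.9 to 95.3) and 94.3% (94.1 to 94.5) of the members' reads, against 81.2%, 77.7% and 80.4% over all genes. Retained introns held 4.65%, 3.96% and 4.79%, against 5.22%, 4.21% and 3.84% over all genes. The reads of all genes include transcript types that no member had, so these shares are not like for like. Transcripts marked for nonsense-mediated decay held 0.737% (0.672 to 0.808), 0.148% and 0.134%. Of that, ENSMUST00000147380 of Ccna2 had 334 reads in BMM-ABs and none in the other libraries, while the main coding transcript of Ccna2, ENSMUST00000029270, had 756, 1294 and 1089.

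Of 45 members with several transcripts and at least 100 reads in each library, 6 had a different leading transcript in at least 1 library. The same count was not made over all genes, so it cannot be said whether 6 of 45 is many or few. Besides Ccnd3, these were E2f1, E2f8, Kif20a, Prim1 and Ccnb1. In Kif20a, ENSMUST00000166044 had 799, 28 and 248 reads and ENSMUST00000167161, with the other first exon, had 225, 970 and 996. The latter thus held 22.0% (19.5 to 24.6), 97.2% (96.0 to 98.1) and 80.1% (77.7 to 82.3) of the gene's reads, although the gene total differed by no more than 1.43-fold. In Prim1, the retained-intron transcript ENSMUST00000133285 had 203, 3 and 15 reads, and the coding ENSMUST00000026461 had 88, 146 and 137.

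In E2f1 and E2f8, whose totals were nearly level, pOC-ABs differed from the others by their leading transcript. E2f1 reads were divided between ENSMUST00000000894 with 437, 228 and 396 and ENSMUST00000103145 with 187, 291 and 136. E2f8 had 469, 270 and 302 reads on ENSMUST00000119223 and 294, 376 and 263 on ENSMUST00000058745. In Ccnb1 the leading transcript of pOC-ABs was the retained-intron ENSMUST00000147790, with 60, 101 and 78 reads, whereas the coding ENSMUST00000072119 had 108, 72 and 95.

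**Figure D5:**
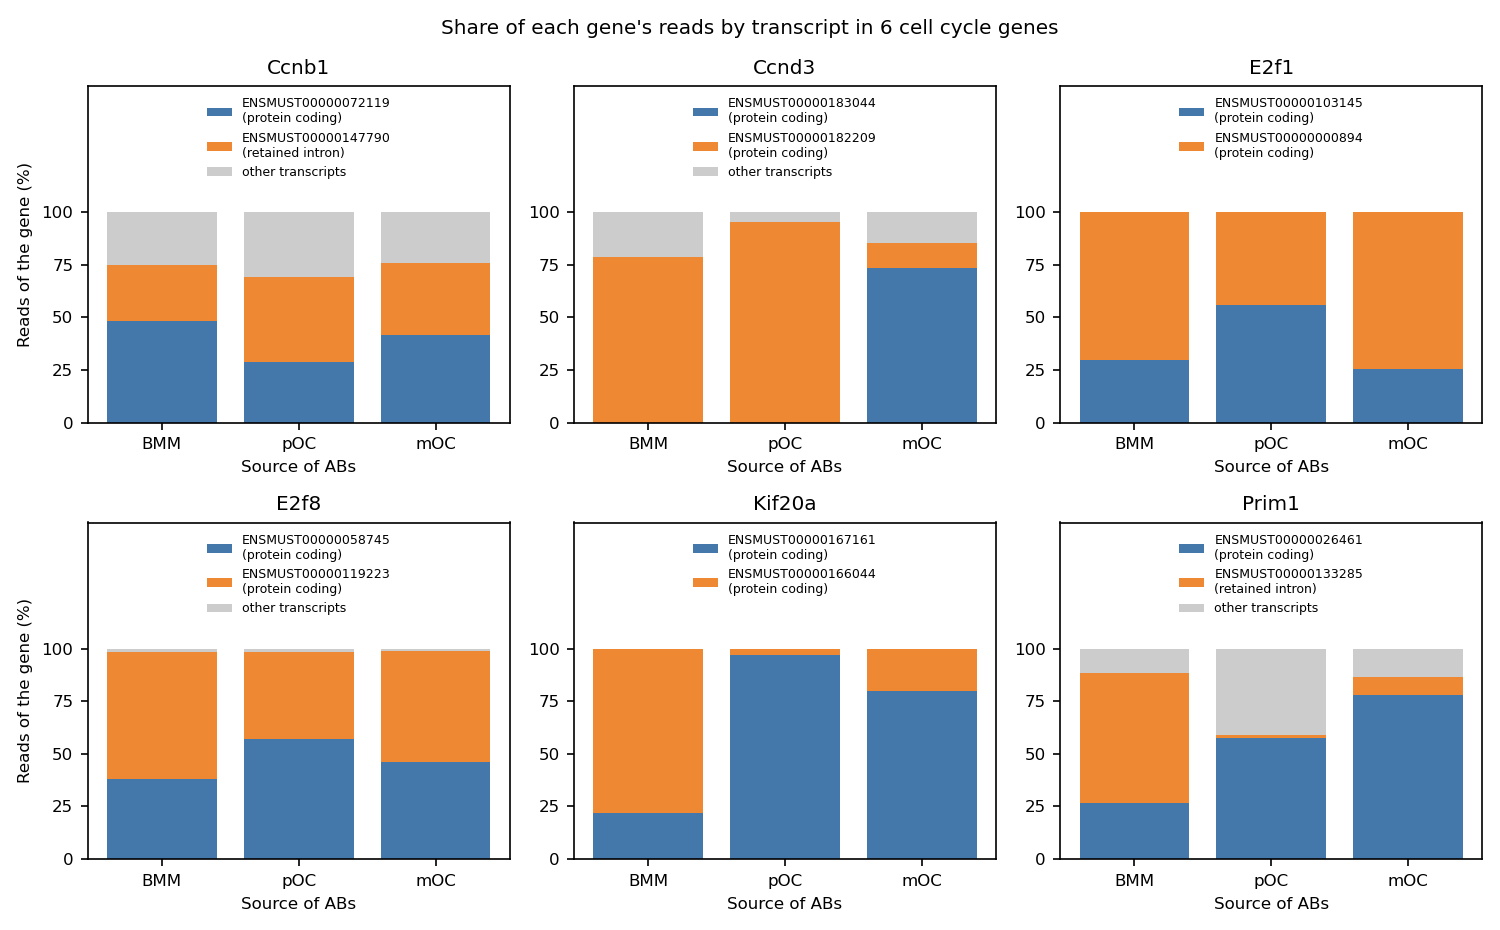
Share of each gene's reads (y axis, percent) by transcript in the 3 libraries for the 6 members whose leading transcript differed between libraries. The leading transcript of Ccnd3 changes in mOC-ABs, those of Kif20a and Prim1 differ between BMM-ABs and the other libraries, and those of E2f1, E2f8 and Ccnb1 differ in pOC-ABs.

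A further view took single transcripts with at least 100 reads over the libraries and more than 10-fold between a pair of libraries after 0.5 reads were added to each count, which 9 transcripts of 8 members met. This count, too, was not made over all genes. Uhrf1 transcript ENSMUST00000113035 had 14, 452 and 12 reads, so its 452 reads in pOC-ABs stood apart while the gene total was level within 1.27-fold. Cdc6 transcript ENSMUST00000093937 had 95, 4 and 1 reads and Cdk2 transcript ENSMUST00000026415 had 55, 1 and 86. Cdkn1a transcript ENSMUST00000119901 had 63, 120 and 8 reads beside 2906, 3636 and 1932 on the main transcript. For all of these the assignment of reads among overlapping transcripts was not tested.

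Circular RNAs of the members had few reads. The circRNA table named 6 members as host of 1 junction each, among 1372 junctions in all, with 22 of 9807 junction reads, or 7, 9 and 6 reads by library. Junction reads were few over all hosts too, at 3413, 2380 and 4014, so low counts were not particular to the members. Bub1b had 5, 5 and 0 reads, Kif23 and Ube2c 3 reads each in mOC-ABs alone, and Cdc6, Aurka and Mki67 2 reads each in 1 library. At these counts no difference between stages was detectable.

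In the lncRNA table, 34 entries overlapped 18 of the 50 members in position, without regard to strand. Cdk6 had 10 of them, with 900, 1549 and 2335 reads in all beside its own 1184, 1409 and 1348 mRNA reads. Most of these were carried by 3 entries, with 721, 657 and 882 for NONMMUT051090.2, 38, 822 and 887 for NONMMUT051093.2, and 56, 1 and 472 for NONMMUT117888.1. They lie at the 3′ end of Cdk6, which spans chr5:3341485-3531008, and reads of the gene and of such an entry cannot be told apart where they share bases. In the other members, overlapping entries had at most 22.2% of the gene's reads in any library, and that share was reached in Ccnd2 with its 9 reads.

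Further genes of the same pathways were taken from lists drawn up by function, 122 genes with 119 listed, all with at least 20 reads. In pOC/BMM, 3 were above the limit of 2 and none below 0.5, where 4.84% and 6.05% of all genes were, and 79 of 119 were above 1, against 48.4%. In mOC/BMM, 1 was above and 3 below, where 4.12% and 8.98% of all genes were, and 41 of 119 were above 1, against 45.4%. In mOC/pOC, 1 was above and 4 below, where 3.48% and 6.83% of all genes were, and 22 of 119 were above 1, against 45.5%. Their median log2 ratios were 0.16, -0.17 and -0.30, beside 0.22, -0.03 and -0.25 for the members and -0.02, -0.05 and -0.05 for all genes.

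Among these lists that of the p53 target genes, which also holds Trp53, the gene of p53 itself, had most of the values past the limit. Cdkn1a is a p53 target as well. Genes past the limit are named here after their values were seen. In mOC/pOC, Ccng1 (110.0, 260.6 and 121.2 RPM), Gadd45a, Trp53inp1 and Phlda3 were lower in mOC-ABs, at -1.10, -1.25, -1.52 and -1.56. Together with Cdkn1a, that is 5 of 14 genes, where 6.83% of all genes were below 0.5. Without Cdkn1a it is 4 of 13. Cdkn1a, at -1.01, came inside the limit with the total of both tables and with median-of-ratios factors. In mOC/BMM, Gadd45a (-1.33, the lowest of the list), Phlda3 (-1.14) and Bbc3 (-1.10) were below 0.5, where 8.98% of all genes were, and Pmaip1 had the highest value (0.96). Ccng1 was above the limit in pOC/BMM (1.24, 1.13 to 1.36). These genes were not all in 1 direction, since the mOC/BMM ratio was above 1 for 6 of the 13 listed beside Cdkn1a, against 45.4% of all genes.

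In the replication lists, Orc6 of the origin recognition complex (12.3, 29.2 and 16.2 RPM, 1.25 in pOC/BMM) and Rpa3 of the single-strand binding complex (1.14 in pOC/BMM) were above the limit in pOC-ABs. Gins3 and Cdc7 had the highest and lowest mOC/BMM values of the origin list (0.61 and -0.61), and Tipin and Rfc5 those of the polymerase list (0.58 and -0.48). Tfdp2, an E2F partner, was above the limit in mOC-ABs (1.24 in mOC/BMM and 1.07 in mOC/pOC), while E2f7 was the lowest of its list at -0.96 in mOC/BMM. Of the other CDK inhibitors, Cdkn1c, Cdkn2a and Cdkn2b had no listed transcript, and Cdkn3 and Cdkn2c were at 0.21 and -0.57 in mOC/BMM. None of 43 other mitotic genes passed the limit in any comparison, where 4.84%, 4.12% and 3.48% of all genes were above 2 and 6.05%, 8.98% and 6.83% below 0.5 in pOC/BMM, mOC/BMM and mOC/pOC. Their mOC/BMM values ran from -0.85 (Pkmyt1) to 0.30 (Bub3), and 8 of them were above 1, against 45.4% of all genes.

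Sequence features were compared with the ratios as a description over genes, which share libraries and are not replicates. Over the 50 members, the Spearman correlation of the log2 ratio with GC content was -0.13, 0.04 and 0.18 in pOC/BMM, mOC/BMM and mOC/pOC, against -0.26, -0.05 and 0.25 over 12591 genes. With transcript length it was 0.03, -0.06 and -0.05, against -0.27, -0.23 and 0.05. The members had a median GC content of 49.4% against 50.4% over those genes.

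Promoter windows of 300 bases (250 before and 50 after the RefSeq start) were found for 42 members, with 47 windows. CCAAT was in 70.2% of these windows against 37.4% of all 32851 windows in the table, CHR in 34.0% against 17.9%, and an E2F word in 21.3% against 2.26%. The E2F word was in 6 of 7 licensing genes but in 1 of 8 replication fork and nucleotide supply genes. CCAAT was in 5 of 7 and 5 of 8 of these. CHR was more frequent in the mitotic groups than in the others. In the 3 mitotic groups, CHR was in 4 of 5, 4 of 6 and 5 of 6 genes, and in the licensing group in 1 of 7. The median log2 pOC/BMM ratio was 0.08 for the 16 members with CHR and 0.23 for the 26 without, and 0.25 for the 10 with an E2F word and 0.11 for the 32 without. In mOC/BMM the medians with and without were -0.08 and -0.06 for CHR and 0.04 and -0.11 for the E2F word. In mOC/pOC they were -0.19 and -0.24 for CHR and -0.11 and -0.25 for the E2F word. These differences were not tested.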

How the data were processed

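Per the methods of the study, AB RNA was purified by poly-A selection and sequenced as paired-end Illumina libraries, 1 for each stage. Submitters' processing notes name FastQC, HISAT2, StringTie and GRCm38, without a role for each. The authors deposited whole-number read counts and FPKM (fragments scaled to transcript length and library size) for each mRNA transcript. The tool that made the counts and its strand setting are not given in the sources used here. The deposited lncRNA table was used for its read counts and for positions, and the deposited circRNA table for its junction read counts, while its normalized values were not used. Columns named by hours were matched to samples by the RANKL times of the labels.

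Of 56651 listed transcripts, 56440 matched GENCODE M21, and the others held at most 0.111% of a library's reads. Counts were summed by gene symbol and divided by the mRNA-table total, in Python 3.11.15 with pandas 2.3.3, numpy 2.4.6 and SciPy 1.17.1, and plotted with matplotlib 3.10.9. Genes with at least 20 reads over the 3 libraries entered the ratios. Because each stage had 1 library, no test across stages was made, and depth sets only the counting intervals, which were tested on simulated data. The simulated counts were independent draws, for genes with at least 100 reads. They checked the calculation of the intervals and could not show the error of these libraries. Reads without molecular identifiers are not independent molecules, so these intervals and the floor of 3 reads cover counting error only.

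Named were all members, the highest and lowest mOC-ABs to BMM-ABs ratio of each other list, transcripts that led a member in 1 library and not in another, and circRNAs of member hosts. Members and lists were chosen with earlier results of these data known. Alternatives were the total of both tables, median-of-ratios factors, upper quartile, FPKM, protein-coding transcripts, other read minimums and a pseudocount. RefSeq promoter windows were matched by symbol.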

Additional observations from a re-analysis of the deposited data

How the results depend on the processing

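No paired analysis was possible because each stage had 1 library, and for the same reason no library could be left out. Under the 8 alternatives, the medians kept their side of a ratio of 1 in pOC/BMM and mOC/pOC, and the counts of members past the limit stayed within 1.5 times in pOC/BMM and mOC/BMM. With the total of the mRNA and lncRNA tables as divisor, the pOC/BMM median log2 ratio went from 0.2246 to 0.0258 and the number past the limit in mOC/pOC from 4 to 2, leaving Ccnd3 and Fen1. This divisor also took Fen1 back inside the limit in pOC/BMM. The median of mOC/BMM ran from -0.13 to 0.02 and so changed sign, and that of mOC/pOC ran from -0.25 to -0.15. The log2 ratio of the summed reads, whose counting interval is narrow, moved past it under several scalings and changed sign in pOC/BMM and mOC/BMM. In pOC/BMM it went from 0.155 to -0.0438 with the total of both tables, 0.19 with the upper quartile, 0.21 with FPKM and 0.18 with protein-coding transcripts. In mOC/BMM it went from -0.07 to -0.17 with the total of both tables, -0.0295 with median-of-ratios factors, -0.0325 with the upper quartile and 0.0208 with FPKM. In mOC/pOC it went from -0.23 to -0.13 with the total of both tables, -0.18 with median-of-ratios factors and -0.19 with FPKM. The lncRNA table added 3634682, 4478015 and 3851365 reads to that divisor, the most for pOC-ABs. Depth limited Ccnd2, with 42 reads, which left the count of called members at a minimum of 100 reads.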
